A study of Mus musculus with 12 samples.

Results

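Nuclear pore and nuclear transport genes were followed through the first steps of mouse development, in oocytes and embryos with and without a Pabpn1l knockout. The 40 members were all genes of the deposited table whose symbol starts with Nup, Xpo, Ipo, Kpna or Tnpo followed by a digit, plus Kpnb1 and Nxf1, out of 11298 genes. They comprised 18 subunits of the pore, 5 exportins, 11 importins of the beta family, 5 importin alpha adaptors and the mRNA export receptor Nxf1. The 6 groups were Pabpn1l KO and Pabpn1l WT oocytes at the germinal vesicle (GV) stage, KO and WT 1-cell embryos, and KO and WT 2-cell embryos, all of the C57BL/6 strain, with 2 libraries in each group. Each library was a Smart-seq2 preparation, primed with oligo-dT, from 10 pooled oocytes or embryos, and libraries were read as pairs of 150 bp. Oocytes were taken in vivo, and embryos were cultured in KSOM medium. The labels do not say whether the mother, the embryo or both carried the knockout, nor how the mice were mated. Nor do they tie the libraries to separate animals, so the p-values below rest on a spread between samples that could be technical.

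The nuclear pore is a ring-shaped channel through the nuclear envelope, built from outer and inner rings of scaffold proteins, a central channel lined by flexible phenylalanine-glycine repeats, filaments on the cytoplasmic side and a basket on the nuclear side. Importins carry proteins into the nucleus and exportins carry cargo out, with direction set by the small GTPase Ran, whereas most mRNA leaves through Nxf1 and its partner Nxt1. A fully grown oocyte stores the mRNAs of this machinery, the maternal store is degraded around fertilisation, and the mouse embryo starts its main transcription at the 2-cell stage. Pabpn1l is an oocyte and early embryo relative of the nuclear poly(A)-binding protein.

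Levels are FPKM, fragment counts divided by transcript length and by the number of fragments mapped, as the authors deposited them. No value lay under 1 FPKM, called the floor here, and a gene given at the floor may lie anywhere up to that value. The deposited embryo columns had been multiplied by 1 number per library, the library factor, which was 1 in all 4 oocyte libraries. It was 0.432 and 0.552 for KO 1-cell embryos, against 0.269 and 0.212 for WT 1-cell embryos. For 2-cell embryos it was 0.13 and 0.121 with KO, against 0.116 and 0.123 with WT. What the factor was based on is not given in the sources used here. Each comparison was therefore made on the deposited values and again on values divided by the factor, with 1 common floor of 8.61 FPKM. A member at that common floor in all libraries compared could not be called on the second scale. A gene is said to have risen or fallen where limma's test gave a Benjamini-Hochberg adjusted p under 0.05 over all 11298 genes, and fold changes are differences of log2(FPKM + 1), which understate the change of low genes. In such pools, fewer intact embryos and less RNA per embryo cannot be told apart.

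The knocked-out gene checked the labels at the earlier stages. Pabpn1l stood at 7.23 and 4.98 FPKM in KO oocytes, against 220 and 204 FPKM in WT oocytes, and at 2.57 and 4.55 FPKM in KO 1-cell embryos, against 16.4 and 12.2 FPKM in WT 1-cell embryos. At 1.00 and 1.90 FPKM in KO and 1.18 and 1.00 FPKM in WT 2-cell embryos it cannot check the 2-cell labels. The defining oocyte markers summed to between 18350 and 18959 FPKM in KO oocytes and between 17246 and 18310 FPKM in WT oocytes. The cumulus and granulosa markers summed to between 74 and 86.4 FPKM in KO oocytes and between 74.3 and 80.9 FPKM in WT oocytes, over the 5 of 12 listed genes that are in the table. Of these, Fshr was higher in KO oocytes on the deposited scale only, with 2.02 and 2.38 FPKM in KO, against 1.00 and 1.06 FPKM in WT oocytes. Inha had 1.07 and 1.53 FPKM in KO, against 3.05 and 9.49 FPKM in WT oocytes, and was not called (adjusted p 0.0735).

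The proximal promoters of 4 members are shown because these genes gave the largest falls (Nxf1, Kpna2) and rises (Nup54, Nup37) at the 2-cell stage among members with an entry in the RefSeq promoter table, a choice made after their values were seen. Kpna1, Nup43 and Kpna3 have no entry. Each sequence is the 250 bases before the first listed transcript start in GRCm38.p6, written along the gene's strand, which is chr19:8756853-8757102 on the plus strand for Nxf1, chr11:106999526-106999775 on the minus strand for Kpna2, chr5:92435200-92435449 on the minus strand for Nup54 and chr10:88146742-88146991 on the plus strand for Nup37. Capitals mark 4 motifs, each searched on both strands, and no 2 matches shown here overlapped. The CCAAT box was searched by the letters in its name. The GC box was searched as GGGCGG. The core promoter element TATA was searched with its common ending, as TATAAA. The motif of homeobox factors of the OTX type was searched as TAATCC.
Nxf1: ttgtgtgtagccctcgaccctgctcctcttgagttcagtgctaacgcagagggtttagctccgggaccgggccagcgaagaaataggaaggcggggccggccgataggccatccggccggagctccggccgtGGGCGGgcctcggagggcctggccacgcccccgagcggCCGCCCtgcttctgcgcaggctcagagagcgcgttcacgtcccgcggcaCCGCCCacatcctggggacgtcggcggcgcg
Kpna2: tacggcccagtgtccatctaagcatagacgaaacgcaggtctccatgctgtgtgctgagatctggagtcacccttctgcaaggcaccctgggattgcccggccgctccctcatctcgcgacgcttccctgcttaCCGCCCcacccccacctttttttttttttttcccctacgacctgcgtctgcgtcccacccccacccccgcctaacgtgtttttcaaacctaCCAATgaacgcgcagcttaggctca
Nup54: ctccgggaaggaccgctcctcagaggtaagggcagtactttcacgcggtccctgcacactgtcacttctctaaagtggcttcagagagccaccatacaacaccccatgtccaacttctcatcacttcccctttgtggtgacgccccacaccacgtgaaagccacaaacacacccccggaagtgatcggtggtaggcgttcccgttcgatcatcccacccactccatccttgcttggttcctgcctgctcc
Nup37: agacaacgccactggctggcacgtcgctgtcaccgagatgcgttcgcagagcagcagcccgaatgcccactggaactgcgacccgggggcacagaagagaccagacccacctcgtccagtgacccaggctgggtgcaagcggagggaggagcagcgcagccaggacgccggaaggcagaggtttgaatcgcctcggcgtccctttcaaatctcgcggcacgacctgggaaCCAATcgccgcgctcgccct
The Nxf1 promoter held 3 GC boxes, that of Kpna2 held 1 GC box and 1 CCAAT box, that of Nup37 held 1 CCAAT box, and that of Nup54 held none of the 4 motifs. Over the first promoter of 27025 genes, 34.5% held a CCAAT box, 32.9% a GC box, 13% a TATA box and 6.38% the OTX-type motif. Of the 32 members with an entry, 16 held a CCAAT box, 20 a GC box, 2 a TATA box and 0 the OTX-type motif. A match of these letters describes the window and is not a binding site.

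**Figure D1:**
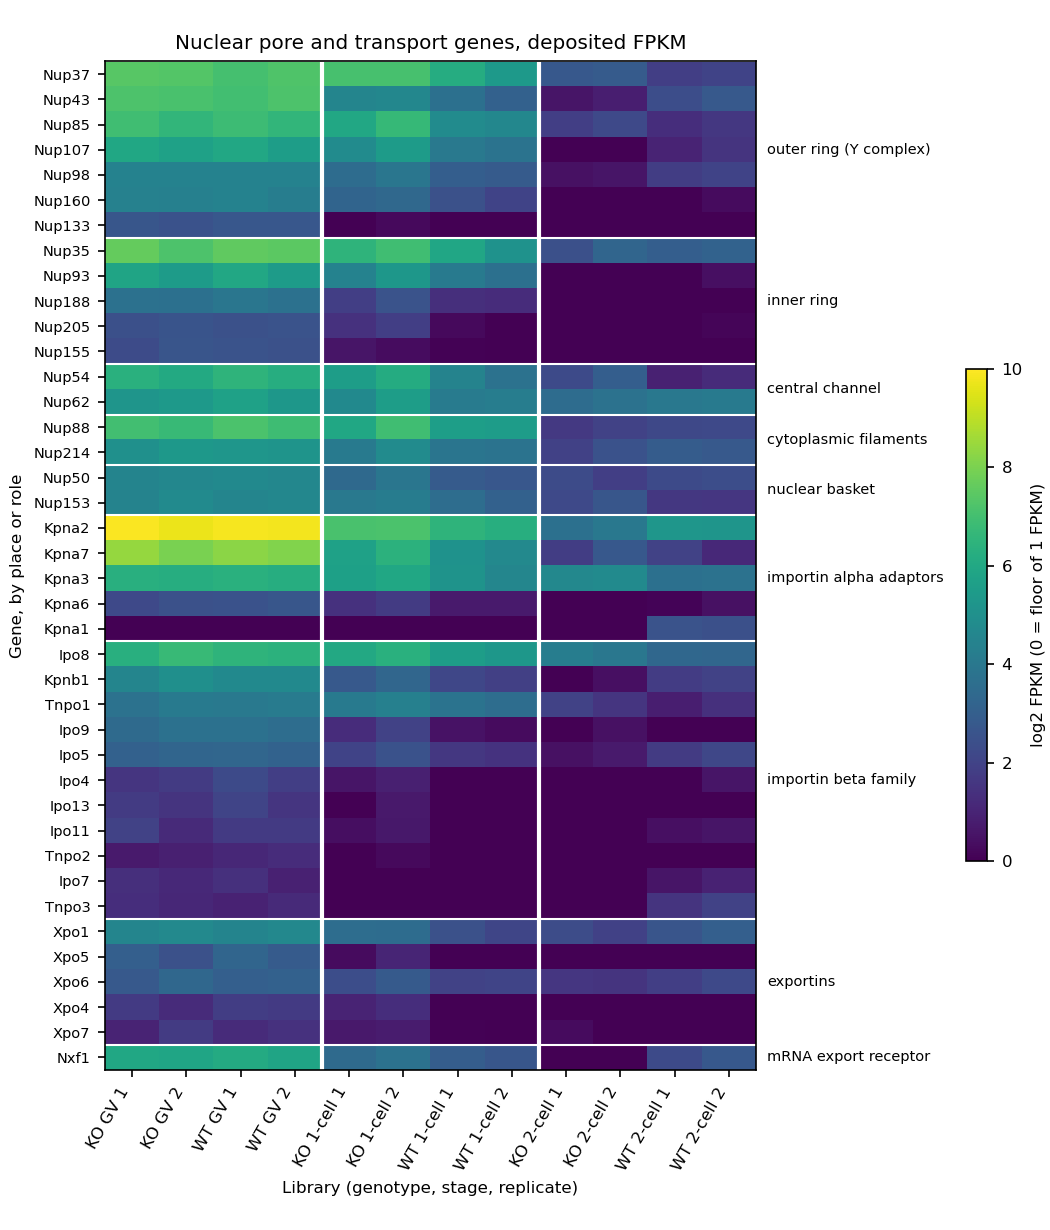
Level of each of the 40 members (one line per gene, grouped by role) in each of the 12 libraries (columns), as deposited log2 FPKM. Kpna2 and Kpna7 stand highest in the oocytes, and 18 members are at the floor in both KO 2-cell libraries, against 8 in both WT 2-cell libraries.

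Oocytes of both genotypes held mRNAs of nearly all members, at levels that ranged widely. Of the 40 members, 39 were above the floor in both KO oocyte libraries and 39 in both WT oocyte libraries, with a median level of 21.2 FPKM in KO and 20.9 FPKM in WT, against a median over all genes of 9.16 FPKM in KO and 9.58 FPKM in WT. Kpna1 was the member at the floor. Several importins and exportins lay below the median of all genes. Tnpo3 had 2.48 and 2.17 FPKM in KO and 1.92 and 2.31 FPKM in WT oocytes. Xpo7 had 2.01 and 3.37 FPKM in KO and 2.33 and 2.70 FPKM in WT oocytes. Kpna2, an importin alpha that binds classical nuclear localisation signals, was the highest, at 990 and 835 FPKM in KO and 921 and 898 FPKM in WT oocytes. Kpna7, the oocyte-type importin alpha, followed at 341 and 251 FPKM in KO and 310 and 278 FPKM in WT oocytes. For both genes the WT values lay between the KO values. Kpnb1, the importin beta that carries importin alpha with its cargo, was far lower, at 23.5 and 31.2 FPKM in KO and 26.5 and 26.7 FPKM in WT oocytes.

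Among pore subunits of the oocyte, Nup35 of the inner ring stood at 201 and 148 FPKM in KO and 187 and 180 FPKM in WT. Nup37 of the outer ring stood at 167 and 159 FPKM in KO and 134 and 151 FPKM in WT, and Nup43 of the same ring at 148 and 141 FPKM in KO and 125 and 149 FPKM in WT. Some scaffold subunits were far lower. Nup133 of the outer ring had 6.39 and 5.80 FPKM in KO and 6.52 and 6.48 FPKM in WT. Nup155 of the inner ring had 4.82 and 6.19 FPKM in KO and 5.89 and 5.64 FPKM in WT. Others lay between. Nup107 of the outer ring had 62.5 and 53.4 FPKM in KO and 64.0 and 46.9 FPKM in WT. Nup93 of the inner ring had 57.9 and 45.1 FPKM in KO and 63.3 and 45.3 FPKM in WT. The FPKM of subunits of the same ring therefore differed far beyond the spread of their libraries. Between genes, FPKM can also differ through transcript length and oligo-dT priming, whose part was not tested. Nup88 and Nup214, partners on the cytoplasmic filaments, stood at 126 and 107 FPKM and at 32.0 and 40.6 FPKM in KO oocytes, against 143 and 119 FPKM and 38.4 and 36.1 FPKM in WT oocytes. Xpo1, the main exportin of proteins with leucine-rich export signals, was at 23.5 and 26.4 FPKM in KO and 23.0 and 25.3 FPKM in WT, and Xpo5, which exports microRNA precursors, at 8.21 and 5.52 FPKM in KO and 9.65 and 7.23 FPKM in WT.

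No difference between KO and WT oocytes passed the test for any member. limma called 0 of 40 members higher and 0 lower, against 0.584% of all genes higher and 1.04% lower, and 2 members, Ipo4 and Tnpo2, had an unadjusted p under 0.05. On values before the factor, 0 members were called, against 0.0531% of all genes higher and 0.0797% lower, and 0 had an unadjusted p under 0.05. The members' log2 fold changes lay between -0.33 and 0.20 with a median of -0.04, beside a median of -0.02 over all genes. Leaving out replicate 1 of either KO or WT oocytes gave 1 member called lower.

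In WT embryos the stored transcripts of nearly the whole machinery were lower after fertilisation. On the deposited scale, 38 of 40 members fell in WT 1-cell embryos against WT oocytes and 0 rose, where 85.8% of all genes fell and 0.0354% rose, and the median log2 fold change was -1.42 for the members and -1.49 for all genes. The 2 members not called were Kpna1, at the floor at both stages, and Tnpo1, the importer of hnRNP-type RNA-binding proteins, at 14 and 12 FPKM in 1-cell embryos against 16.3 and 17.8 FPKM in oocytes. The scale decides this count: before the factor, 6 members fell and 8 rose, where 21.1% of all genes fell and 8.67% rose. Some members, such as Nup133 and Nup205, lay at the common floor in all 4 libraries and could not be called before the factor. The factor moved the median ratio of genes above the floor from -0.10 to -2.16 on the log2 scale.

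The members that fell on both scales included main carriers. Kpna2 had 90.9 and 76.5 FPKM in WT 1-cell embryos, against 921 and 898 FPKM in WT oocytes (log2 fold change -3.43 ± 0.17 SE, limma adjusted p 1.7e-07, and -1.38 before the factor). Nup43 had 13 and 8.66 FPKM in WT 1-cell embryos, against 125 and 149 FPKM in WT oocytes (-3.56 ± 0.21, adjusted p 3.91e-07, and -1.60 before the factor). Nxf1 had 7.80 and 6.43 FPKM, against 69.7 and 56.7 FPKM (-2.98 ± 0.19, adjusted p 7.14e-07, and -1.06 before the factor). All 4 libraries of each gene kept the stages far apart. Ipo9, an importin of histones and other basic proteins, had 1.41 and 1.24 FPKM in WT 1-cell embryos, against 13.1 and 11.8 FPKM in WT oocytes (-2.54 ± 0.19, adjusted p 1.78e-06, and -0.49 before the factor). Kpnb1 had 4.37 and 3.67 FPKM, against 26.5 and 26.7 FPKM (-2.46 ± 0.20, adjusted p 2.84e-06, and -0.64 before the factor). Nup188 of the inner ring was the remaining member that fell on both scales. The 8 members that rose before the factor were Tnpo1 (1.61), Ipo8 (1.01), Xpo6 (0.89), Nup153 (0.81), Nup62 (0.73), Nup37 (0.71), Kpna3 (0.62) and Nup98 (0.53), and on the deposited scale 7 of these 8 fell and Tnpo1 did not pass.

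From the 1-cell to the 2-cell stage the mRNAs of many pore subunits fell in WT embryos, while those of a few carriers rose. On the deposited scale 18 members fell and 3 rose in WT 2-cell against WT 1-cell embryos, where 29.0% of all genes fell and 9.45% rose, and before the factor 12 fell and 11 rose, where 14.9% of all genes fell and 21.0% rose. The outer ring had 6 of its 7 members fall on the deposited scale and 4 on both scales. Before the factor 2 pore subunits rose. Nup50 of the basket went from 27.4 and 30.6 to 41.3 and 42.0 FPKM. Nup62 of the central channel went from 67.0 and 88.5 to 136 and 140 FPKM. The 5 largest falls on both scales were those of Nup37, Nup88, Nup93, Kpna7 and Nup85. Nup37 had 3.60 and 4.04 FPKM in 2-cell embryos, against 73.1 and 42.7 FPKM in 1-cell embryos (log2 fold change -3.56 ± 0.22 SE, limma adjusted p 4.65e-06, and -2.83 before the factor). Nup88 had 4.52 and 4.65 FPKM, against 49.3 and 46.5 FPKM (-3.13, and -2.35 before the factor). For both subunits the stages did not overlap. Kpna7 had 3.96 and 2.24 FPKM, against 34.7 and 26.4 FPKM (-2.96, and -2.30 before the factor). Nup93, the inner ring scaffold, had 1.00 and 1.33 FPKM, against 17.0 and 12.8 FPKM (-2.87, and -2.55 before the factor). Nup85 of the outer ring had 2.50 and 3.08 FPKM, against 28.0 and 24.9 FPKM (-2.86, and -2.20 before the factor).

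Kpna1, Tnpo3 and Ipo7 rose on both scales at the WT 2-cell stage, each from a 1-cell level at the floor. Kpna1, a widely expressed importin alpha, had 5.90 and 5.43 FPKM in WT 2-cell embryos and was at the floor in both WT 1-cell libraries, at least 5.67-fold higher (adjusted p 2.92e-07). It was at the floor in all groups but WT 2-cell embryos, which hides spread and makes this p-value too small. Tnpo3, the importer of serine-arginine-rich splicing factors, had 2.83 and 3.95 FPKM in WT 2-cell embryos and was at the floor in both WT 1-cell libraries, at least 3.39-fold higher (adjusted p 7.93e-05). Ipo7, an importin of ribosomal proteins and histones, had 1.5 and 1.95 FPKM, at least 1.73-fold higher (adjusted p 0.0102). The call of Ipo7 was lost without WT 1-cell replicate 1 (adjusted p 0.0568) or WT 2-cell replicate 2 (adjusted p 0.0925).

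**Figure D2:**
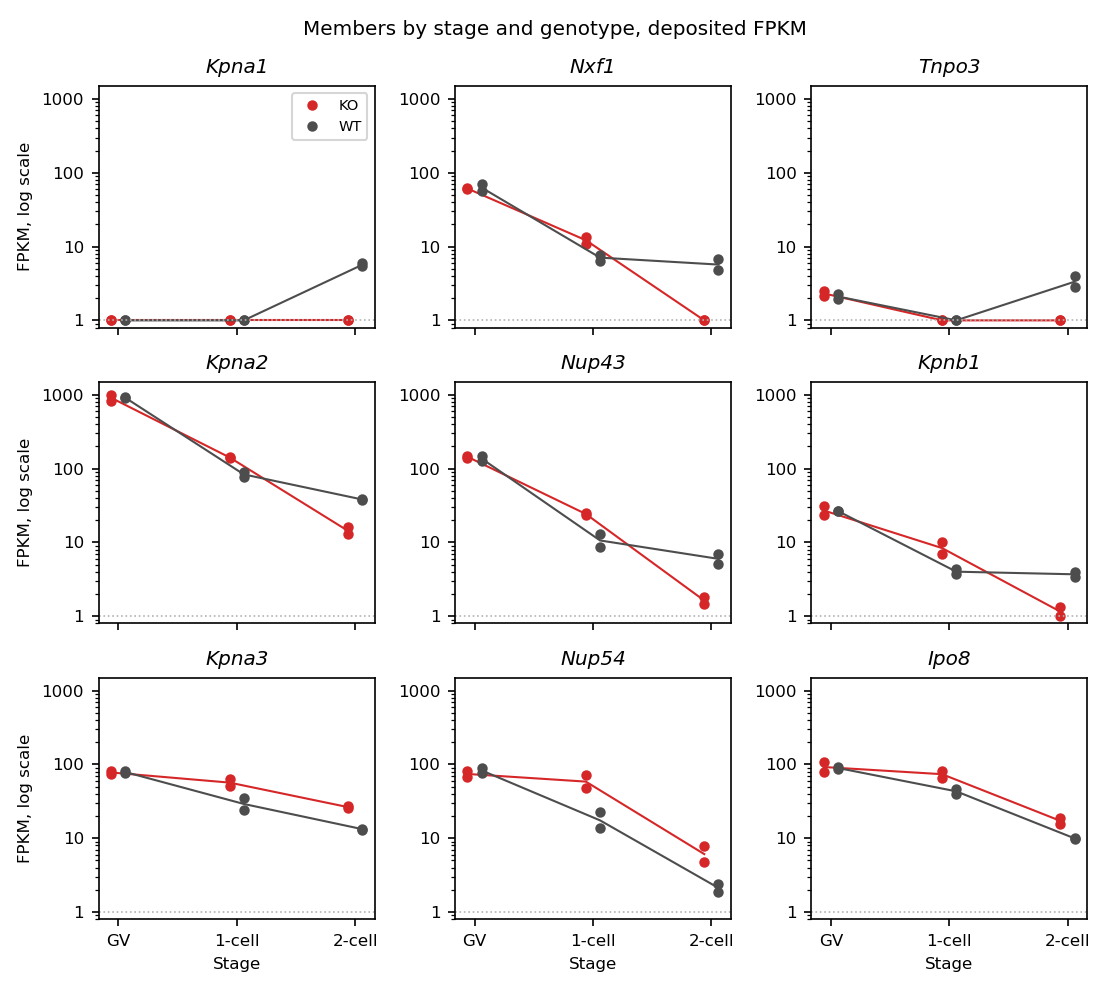
Deposited FPKM (log axis) of 9 members by stage, KO libraries left of WT libraries. Points are libraries, lines join the geometric mean of the 2 libraries of each genotype, and the dotted line is the floor of 1 FPKM. In 2-cell embryos the KO points of the upper 6 genes lie below the WT points, and those of the lower 3 genes lie above them.

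In KO 1-cell embryos most members were higher than in WT 1-cell embryos on the deposited scale. Of the 40 members, 27 rose and 0 fell, where 52.7% of all genes rose and 0.0974% fell, so that 67.5% of the members rose. The median log2 fold change was 0.71 over the members and 0.57 over all genes, and all 7 outer ring members had a positive value, of which 6 passed. Before the factor 0 members rose and 0 fell, with 2 higher and 3 lower at an unadjusted p under 0.05, where 4.93% of all genes rose and 1.55% fell. Some members that rose on the deposited scale could not be called here. Ipo4, Ipo9, Kpna6, Nup205 and Xpo4 lay at the common floor of 8.61 FPKM in all 4 libraries. The 6227 genes above the floor in all 4 libraries had a median KO over WT ratio of 2.06 on the deposited scale, a log2 value of 1.04, and of 0.01 on the log2 scale before the factor. The 28 members among them had medians of 0.93 and -0.09, which is below the median of all genes on both scales.

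The largest differences at this stage were those of Nup54 and Nup85. Nup54, a subunit of the central channel, had 47.8 and 71.3 FPKM in KO 1-cell embryos, against 22.3 and 13.6 FPKM in WT 1-cell embryos (log2 fold change 1.69 ± 0.30 SE, limma adjusted p 0.00211, and 0.71 before the factor, adjusted p 0.278). Nup85 had 64.2 and 105 FPKM in KO, against 28.0 and 24.9 FPKM in WT (1.60 ± 0.25, adjusted p 0.00107, and 0.60 before the factor, adjusted p 0.196). For both genes the groups did not overlap. Kpna2 had 141 and 142 FPKM in KO, against 90.9 and 76.5 FPKM in WT (0.76 ± 0.17, adjusted p 0.00516), and -0.26 before the factor (adjusted p 0.695). Xpo1 had 11.9 and 11.6 FPKM in KO, against 5.60 and 4.27 FPKM in WT (1.11 ± 0.19, adjusted p 0.00155), and 0.23 before the factor (adjusted p 0.813). Kpna1, Ipo7 and Tnpo3 lay at the floor throughout this stage. The count of 27 became 17 without KO 1-cell replicate 2 and 14 without WT 1-cell replicate 2. Quantile normalization left 3 members higher and 2 lower, where it called 12.8% of all genes higher and 16.4% lower. On the deposited scale the oocyte markers moved in the same direction. They summed to between 8037 and 8946 FPKM in KO 1-cell embryos and between 2911 and 3851 FPKM in WT 1-cell embryos. Of the 14 markers, 0 were at the floor in both KO libraries and 1 in both WT libraries. On that scale 13 of the 14 markers were higher in KO, against 2 before the factor. The median log2 fold change of the markers was 1.31 as deposited and 0.21 before the factor. Their part in these differences was not tested.

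**Figure D3:**
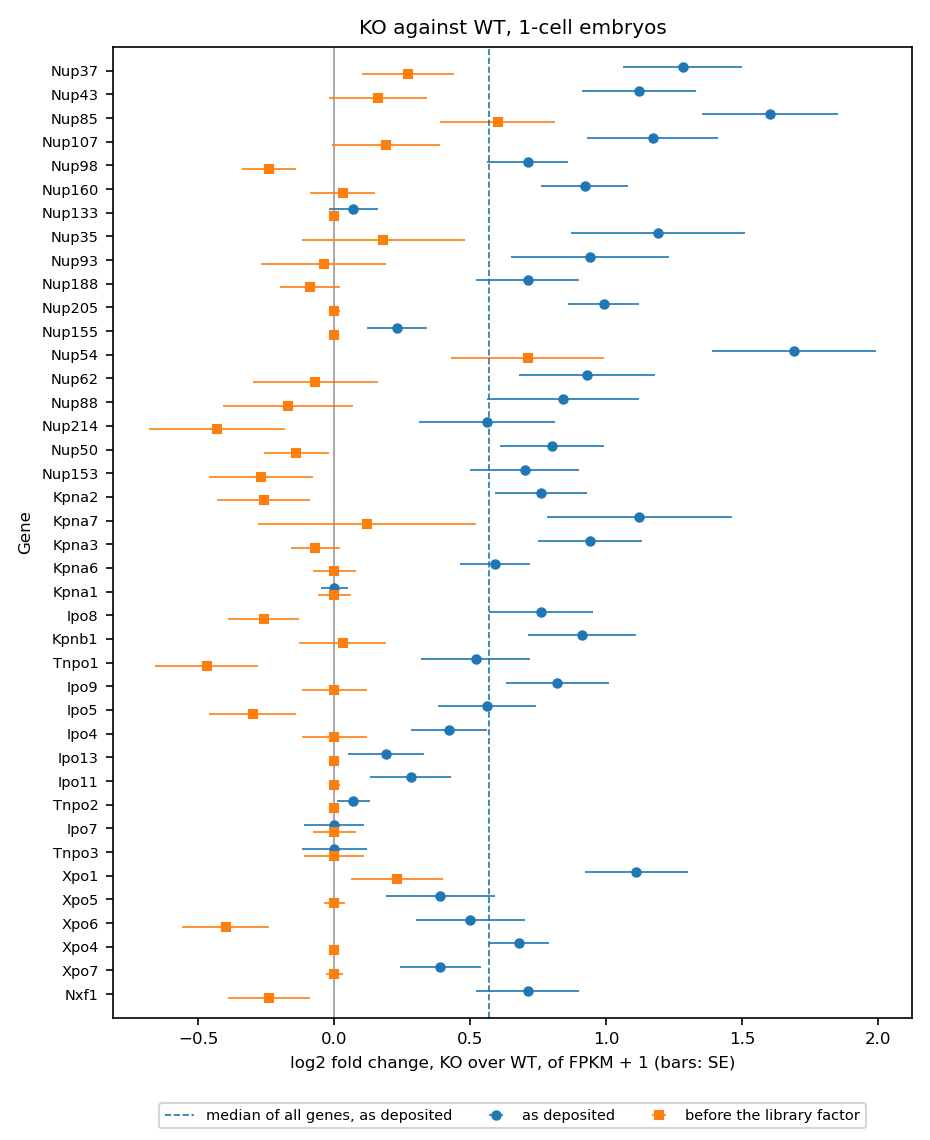
Difference between KO and WT 1-cell embryos for each member, as log2 fold change of FPKM + 1 with bars of 1 SE, on the deposited scale (circles) and before the library factor (squares). The dashed line is the median of all genes on the deposited scale, 0.57. Circles lie at or above 0, and squares lie on both sides of 0.

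At the 2-cell stage the KO embryos differed in a more divided way. On the deposited scale 10 members fell and 5 rose in KO 2-cell against WT 2-cell embryos, which is 25.0% and 12.5% of the members, where 12% of all genes fell and 7.56% rose. All 15 also passed in the same direction before the factor, where 13 members fell and 5 rose and 18.7% of all genes fell and 11.1% rose. The median log2 fold change was -0.13 over the members and 0.00 over all genes. The members that fell were the mRNA export receptor Nxf1, the adaptors Kpna1 and Kpna2, the importins Kpnb1, Ipo5, Ipo7 and Tnpo3, the exportin Xpo1 and the outer ring subunits Nup43 and Nup98. The members that rose were Nup54, Nup37, Nup153, Kpna3 and Ipo8. The members together held 0.23% and 0.257% of the summed FPKM in KO 2-cell embryos, against 0.33% and 0.322% in WT 2-cell embryos.

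**Figure D4:**
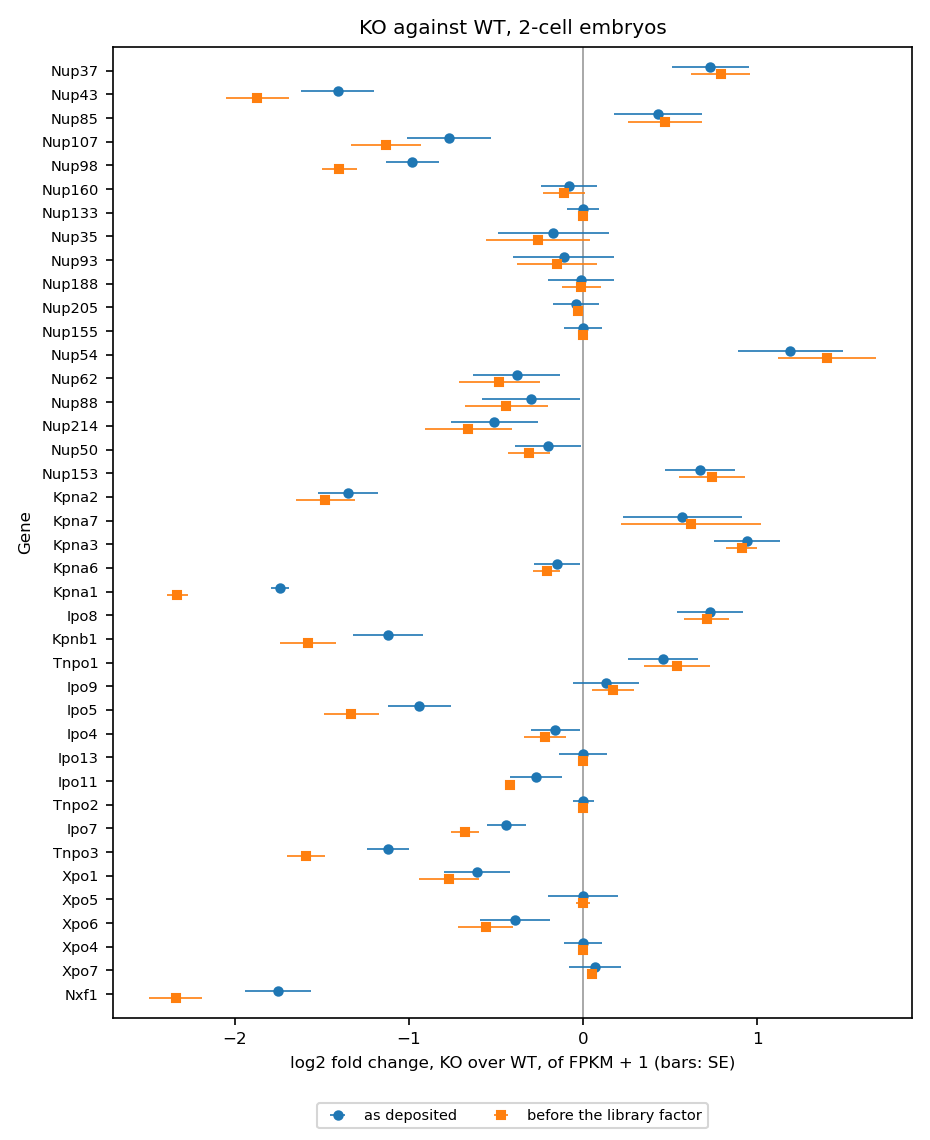
Difference between KO and WT 2-cell embryos for each member, as log2 fold change of FPKM + 1 with bars of 1 SE, on the deposited scale (circles) and before the library factor (squares). Nxf1 and Kpna1 lie farthest to the left, at -1.75 and -1.74 on the deposited scale, and Nup54 farthest to the right, at 1.19.

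Nxf1 was at the floor in both KO 2-cell libraries and had 4.77 and 6.81 FPKM in WT 2-cell embryos, at least 5.79-fold lower in KO (limma adjusted p 0.00027). On the deposited scale the Nxf1 level of WT 2-cell embryos was close to that of the WT 1-cell stage, at 7.80 and 6.43 FPKM. Before the factor it rose, from 28.9 and 30.3 FPKM in WT 1-cell to 41.0 and 55.4 FPKM in WT 2-cell embryos (log2 fold change 0.67). KO 1-cell embryos still had 11.0 and 13.5 FPKM on the deposited scale. Nxf1 was thus above the floor in all 6 WT libraries and in the 4 KO libraries of the earlier stages.

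Among the importin alpha adaptors, Kpna1 and Kpna2 fell and Kpna3 rose. Kpna1 was at the floor in all 6 KO libraries of the study, and its 5.90 and 5.43 FPKM in WT 2-cell embryos made it at least 5.67-fold lower in KO (limma adjusted p 3.51e-07). Its SE of 0.05 comes mostly from libraries at the floor, where no spread can be seen. That p-value therefore does not measure the spread between samples. The WT 2-cell libraries of this comparison are also those in which Kpna1 rose against WT 1-cell embryos. Kpna2 had 12.8 and 16.0 FPKM in KO, against 38.6 and 37.6 FPKM in WT (log2 fold change -1.35 ± 0.17 SE, adjusted p 0.000511, and -1.48 before the factor). Kpna3, a further adaptor of classical signals, had 25.3 and 27.4 FPKM in KO, against 13 and 13.5 FPKM in WT (0.94 ± 0.19, adjusted p 0.0068, and 0.91 before the factor). In WT 2-cell embryos Kpna2 was the most abundant adaptor, whereas in KO 2-cell embryos Kpna3 stood above Kpna2 in both libraries. Kpna7 had 3.54 and 6.79 FPKM in KO and 3.96 and 2.24 FPKM in WT, an overlap of the groups with an adjusted p of 0.377. Kpna6, at the floor in KO and at 1.06 and 1.38 FPKM in WT, did not pass either. An annotated processed pseudogene of Kpna2 could take some of its reads.

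Among the importins of the beta family, 4 of 11 members fell and Ipo8 rose on both scales. Kpnb1 had 1.00 and 1.32 FPKM in KO, with 1 library at the floor, against 3.43 and 3.97 FPKM in WT (log2 fold change -1.12 ± 0.20 SE, limma adjusted p 0.00391, and -1.58 before the factor). Tnpo3 was at the floor in both KO libraries and at 2.83 and 3.95 FPKM in WT, at least 3.39-fold lower in KO (adjusted p 0.000209). These groups did not overlap. Ipo5, an importin of ribosomal proteins and histones, had 1.38 and 1.66 FPKM in KO, against 3.32 and 4.37 FPKM in WT (-0.94 ± 0.18, adjusted p 0.00642, and -1.33 before the factor). Ipo7 was at the floor in both KO libraries and at 1.5 and 1.95 FPKM in WT, at least 1.73-fold lower in KO (adjusted p 0.0202). Ipo8, the closest relative of Ipo7 in the family, had 18.7 and 15.7 FPKM in KO, against 10.0 and 9.84 FPKM in WT (0.73 ± 0.19, adjusted p 0.0241, and 0.71 before the factor). Tnpo1 had 3.91 and 2.88 FPKM in KO and 1.78 and 2.60 FPKM in WT, which did not pass (adjusted p 0.181), and the other 5 members stood below 1.5 FPKM in all 4 libraries. Of these 5, Ipo11 fell before the factor only (log2 fold change -0.42). On that scale it was at the common floor in every group but WT 2-cell embryos. The exons of Tnpo3 overlap Irf5 on the opposite strand and those of Kpnb1 an antisense gene, and reads of such pairs cannot be told apart without strand.

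The call of Ipo5 was lost without KO 2-cell replicate 1 (adjusted p 0.0532) or WT 2-cell replicate 2 (adjusted p 0.0611). That of Ipo7 was lost without KO 2-cell replicate 1 (0.097), KO 2-cell replicate 2 (0.102) or WT 2-cell replicate 2 (0.161). That of Ipo8 was lost without any of the 4 libraries, with adjusted p between 0.0503 and 0.142.

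Of the exportins, Xpo1 fell and the others did not pass on the deposited scale. Xpo1 had 5 and 3.79 FPKM in KO, against 6.27 and 8.18 FPKM in WT (log2 fold change -0.61 ± 0.19 SE, limma adjusted p 0.0498, and -0.77 before the factor). This call was lost without KO 2-cell replicate 1 (adjusted p 0.055), KO 2-cell replicate 2 (0.287) or WT 2-cell replicate 2 (0.272). Xpo6, the exporter of actin with profilin, had 2.96 and 2.81 FPKM in KO and 3.63 and 4.60 FPKM in WT (-0.39, adjusted p 0.27), and fell before the factor (-0.56, adjusted p 0.0343). Xpo4 and Xpo5 did not leave the floor in any library of the stage, and Xpo7 was above it in 1 KO library, at 1.22 FPKM.

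The pore scaffold did not move as a block. In the outer ring, Nup43 had 1.48 and 1.79 FPKM in KO, against 5.15 and 6.93 FPKM in WT (log2 fold change -1.41 ± 0.21 SE, limma adjusted p 0.00133, and -1.87 before the factor). Nup98, whose precursor is cleaved into the repeat protein Nup98 and the outer ring subunit Nup96, had 1.36 and 1.49 FPKM in KO, against 3.49 and 4.08 FPKM in WT (-0.98 ± 0.15, adjusted p 0.00201, and -1.40 before the factor). Both fell with no overlap between the groups. Nup107 was at the floor in both KO libraries and at 2.01 and 2.87 FPKM in WT, with an adjusted p of 0.058 on the deposited scale and 0.00458 before the factor. In the same ring Nup37 had 6.79 and 7.22 FPKM in KO, against 3.60 and 4.04 FPKM in WT (0.73 ± 0.22, adjusted p 0.0486, and 0.79 before the factor). Nup85 had 3.63 and 4.59 FPKM in KO and 2.50 and 3.08 FPKM in WT (0.43, adjusted p 0.338), and Nup160 and Nup133 were at the floor in both KO libraries and below 1.3 FPKM in WT.

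Of the inner ring, 0 of 5 members passed on either scale, with log2 fold changes between -0.17 and 0.00, and Nup93, Nup155, Nup188 and Nup205 were at the floor in both KO libraries. Nup35, the one inner ring member well above the floor, had 5.48 and 9.63 FPKM in KO and 7.90 and 8.78 FPKM in WT, with overlapping groups. In the central channel, Nup54 had 4.70 and 7.87 FPKM in KO, against 1.89 and 2.37 FPKM in WT (log2 fold change 1.19 ± 0.30 SE, limma adjusted p 0.0221, and 1.40 before the factor), and its partner Nup62 had 11.5 and 13.5 FPKM in KO and 15.9 and 17.2 FPKM in WT (-0.38, adjusted p 0.45). In the basket, Nup153 had 4.57 and 6.40 FPKM in KO, against 3.09 and 2.96 FPKM in WT (0.67 ± 0.20, adjusted p 0.0442, and 0.74 before the factor), and Nup50 had 4.86 and 3.63 FPKM in KO and 4.80 and 5.16 FPKM in WT. On the cytoplasmic filaments, Nup214 had 3.87 and 5.73 FPKM in KO and 7.52 and 6.84 FPKM in WT, and Nup88 had 3.19 and 3.88 FPKM in KO and 4.52 and 4.65 FPKM in WT. Neither filament subunit passed, with adjusted p of 0.23 for Nup214 and 0.721 for Nup88.

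Each of the 4 libraries was left out in turn, on the deposited scale only, which leaves 1 library in a group. Leaving out any of the 4 libraries ended the call of Nup37, with adjusted p between 0.142 and 0.22. The calls of Nup54 and Nup153 were each lost without KO 2-cell replicate 2 (adjusted p 0.172 for Nup54 and 0.279 for Nup153), WT 2-cell replicate 1 (0.156 for Nup54 and 0.143 for Nup153) or WT 2-cell replicate 2 (0.0986 for Nup54 and 0.184 for Nup153). The rise of Kpna3 was called in all 4, with adjusted p of at most 0.0493. The count of 5 members higher became 3 without KO 2-cell replicate 1 and 1 without any other library. The calls of Nxf1, Kpna1, Kpna2, Kpnb1, Tnpo3, Nup43 and Nup98 held in all 4. For Nxf1, Kpna1 and Tnpo3 both KO libraries were at the floor, so leaving out a KO library could not move the fold change. Kpna1 varied only between the WT 2-cell libraries, so leaving out a WT library removed its only spread. For Kpna1 this check therefore says little.

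Some markers of stage also differed between KO and WT 2-cell embryos. The 14 oocyte markers summed to between 1435 and 1554 FPKM in KO 2-cell embryos and between 799 and 833 FPKM in WT 2-cell embryos, with 7 higher in KO, 0 lower, and 1 at the floor in both KO libraries against 2 in both WT libraries. Oosp1 carried most of this gap, with 888 and 940 FPKM in KO, against 318 and 318 FPKM in WT. Without it the sums were 548 and 614 FPKM in KO, against 481 and 515 FPKM in WT. Dppa3 lay the other way, at 236 and 243 FPKM in KO, against 341 and 373 FPKM in WT, and was not called. The 10 markers of the 2-cell embryo in the table summed to between 17.4 and 32 FPKM in KO and between 82.8 and 84.4 FPKM in WT, with 4 lower and 1 higher in KO, and 2 at the floor in both KO libraries against 0 in both WT libraries. Most of this gap was Sp110, with 8.01 and 5.42 FPKM in KO, against 59.1 and 55.6 FPKM in WT. Sp110 was also present in oocytes, at 402 and 342 FPKM in KO and 348 and 355 FPKM in WT. Without it the sums were 24.0 and 12 FPKM in KO, against 25.2 and 27.2 FPKM in WT. The KO libraries differed in these markers: Gm8300 had 7.11 FPKM in KO replicate 1 and was at the floor in KO replicate 2, against 6.29 and 6.75 FPKM in WT. Their part in the differences of the members was not tested. Cumulus markers summed to between 5.22 and 5.65 FPKM in KO and between 5.15 and 6.07 FPKM in WT, and blood markers to between 6.33 and 7.02 FPKM in KO and between 5.16 and 5.36 FPKM in WT, each over 5 genes. Of the blood markers, Lyz2 was higher in KO on both scales, with 2.33 and 2.70 FPKM in KO and both WT libraries at the floor.

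The KO-WT difference itself changed between the stages for 10 of 40 members on both scales. The share of all genes that changed on both scales was not counted. From the oocyte to the 1-cell stage it moved upwards for 21 of 40 members on the deposited scale, where 38.7% of all genes moved upwards and 0.859% downwards, and for 0 before the factor, where 2.24% of all genes moved upwards and 0.505% downwards and 0 members had an unadjusted p under 0.05. That count of 21 became 8 without KO 1-cell replicate 2, 6 without WT 1-cell replicate 2, 13 without KO GV replicate 1, 7 without WT GV replicate 1 and 12 without WT GV replicate 2. From the 1-cell to the 2-cell stage the difference moved downwards for 22 members and upwards for 0, where 35.7% of all genes moved downwards and 0.239% upwards. Before the factor it moved downwards for 12 members and upwards for 4, namely Tnpo1, Ipo8, Kpna3 and Nup153, where 15.8% of all genes moved downwards and 5.91% upwards. The count of 22 became 13 without WT 1-cell replicate 2 and 13 without WT 2-cell replicate 2. The 10 members that moved downwards on both scales were Nup43, Nxf1, Kpna2, Kpnb1, Nup107, Kpna1, Xpo1, Nup98, Ipo5 and Tnpo3. With any of the 8 libraries left out, their changes on the deposited scale stayed negative. They lay between -2.79 and -2.26 for Nup43 and between -1.31 and -0.94 for Tnpo3. No library was left out before the factor. Under quantile normalization Xpo1 (adjusted p 0.0635) and Ipo5 (adjusted p 0.0588) were not called, and a minimum mean of 5 FPKM kept only 6 of the 10 in the test. Nup107 shows the pattern: it had 28.2 and 44.4 FPKM in KO 1-cell embryos, against 16.4 and 14.1 FPKM in WT 1-cell embryos, and was at the floor in KO 2-cell embryos, against 2.01 and 2.87 FPKM in WT 2-cell embryos. These contrasts use the same libraries as the comparisons within each stage.

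The wider pathway outside the symbol rule was counted from lists of its known genes. At the 2-cell stage, 2 of 12 other pore subunits fell in KO embryos on both scales, namely Ahctf1, the pore assembly factor Elys (-0.78), and Tpr of the basket (-0.82), and 0 rose. Of 9 genes of the Ran cycle, 3 fell (Ran, Ranbp1 and Rangap1) and 1 rose (Ranbp9) on the deposited scale, and 5 fell and 0 rose before the factor. Of 4 other karyopherins and adaptors, 2 fell (Snupn and Cse1l), and of 22 mRNA export genes, 9 fell and 1 rose (Ddx19a). Of 14 genes of the lamina and envelope, 5 fell (Tor1aip2, Sun1, Lbr, Emd and Tor1aip1) and 1 rose (Banf1). The genes in brackets were named after their values were seen. The backgrounds are the 12% lower and 7.56% higher given above. The median log2 fold change was -0.38 for the other pore subunits, -0.67 for the Ran cycle and -0.30 for mRNA export.

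The 5 largest of these differences included partners of Nxf1 in mRNA export. Ddx39, a helicase related to the export factor Uap56, was at the floor in both KO 2-cell libraries and at 16.9 and 14.8 FPKM in WT, at least 15.9-fold lower in KO (limma adjusted p 1.24e-05). Snupn, the adaptor that returns spliceosomal snRNPs to the nucleus, had 1.09 and 1.00 FPKM in KO, against 8.01 and 13.5 FPKM in WT (log2 fold change -2.48 ± 0.26 SE, adjusted p 0.000183). Alyref, the adaptor that hands mRNA to Nxf1, had 2.11 and 1.26 FPKM in KO, against 8.86 and 9.07 FPKM in WT (-1.91 ± 0.23, adjusted p 0.000498). The KO and WT ranges of these genes were well apart. Ncbp1, the large subunit of the cap-binding complex, was at the floor in KO and at 5.23 and 6.18 FPKM in WT, at least 5.71-fold lower (adjusted p 2.45e-05). Banf1, which bridges chromatin and the nuclear envelope, went the other way, with 24.4 and 45.5 FPKM in KO, against 10.0 and 12 FPKM in WT (1.52 ± 0.27, adjusted p 0.00352).

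At the 1-cell stage, 8 of the 12 other pore subunits, 5 of 9 Ran cycle genes, 3 of 4 other karyopherins and adaptors, 19 of 22 mRNA export genes and 9 of 14 lamina and envelope genes rose in KO embryos on the deposited scale, and 0 fell, where 52.7% of all genes rose and 0.0974% fell. Before the factor 1 Ran cycle gene and 2 mRNA export genes rose, where 4.93% of all genes rose, and these 3 rose on both scales. Ranbp1, a cofactor of Ran GTP hydrolysis, had 37.8 and 44.0 FPKM in KO 1-cell embryos, against 6.74 and 5.92 FPKM in WT 1-cell embryos (log2 fold change 2.51 ± 0.14 SE, limma adjusted p 1.2e-05, and 1.62 before the factor). Thoc6 of the THO export complex had 10.4 and 17.0 FPKM in KO, against 4.17 and 3.30 FPKM in WT (1.61, adjusted p 0.000603, and 0.78 before the factor), and Thoc1 of the same complex had 20.2 and 20.8 FPKM in KO, against 7.67 and 5.64 FPKM in WT (1.5, adjusted p 0.000178, and 0.59 before the factor). In oocytes 0 pathway genes passed on both scales. Ranbp1 was lower in KO at the 2-cell stage, with 4.54 and 5.03 FPKM in KO, against 8.85 and 7.56 FPKM in WT (-0.67, adjusted p 0.0102).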

How the data were processed

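The authors deposited 1 table of FPKM values with 1 column for each of 12 libraries. Genome build mm9, Cufflinks 2.2.1 and TopHat2 2.1.1 are named, per the submitters' processing notes. Of the table, 11298 complete entries were read, and the last entry, with 1 value, was left out. The read depth behind FPKM is unknown, so no counting interval is given.

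Every value above the floor of 1 FPKM in the deposited embryo columns was a whole multiple of a 6-digit number times 1 factor per library (100% of values, tolerance 0.01 of the last digit). Values before the factor were obtained by division, with the highest floor applied to all libraries.

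log2(FPKM + 1) of the deposited values was modelled in R 4.3.3 (limma 3.58.1), with 6 group means over 12 libraries and an intensity trend, which left 6 residual degrees of freedom shared over groups. Tests were two-sided, adjusted over all genes, and tried first on simulated data. A pseudocount of 0.1, quantile normalization, a minimum mean of 5 FPKM, a replicate block and leaving out each library were alternatives. Replicate numbers are shared by the labels but do not pair the samples.

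Values and statistics are given for members called on both scales, for the 5 largest rises and falls of each WT transition, for the 2 highest in WT oocytes of each role, and for Kpnb1, Nxf1, Kpna2, Kpna7 and Xpo1. Other named members serve to describe their role class. Pathway genes come from fixed lists, at most 5 per comparison. The members and lists were chosen with earlier results of these data known. Promoters are RefSeq's for GRCm38.p6, matched by symbol for 32 members. The exons of 14 members overlap another gene in GENCODE M21, and strand was not recorded.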

Additional observations from a re-analysis of the deposited data

Results flagged for a closer look

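For 10 members the difference between KO and WT embryos changed between the 1-cell and the 2-cell stage, by limma's test of that change itself on both scales. Over all genes, 35.7% moved downwards on the deposited scale and 15.8% before the factor. The share on both scales was not counted. The change is the log2 KO-WT difference at the 2-cell stage minus that at the 1-cell stage. It was -2.53 for Nup43, -2.45 for Nxf1, -2.11 for Kpna2, -2.03 for Kpnb1 and -1.94 for Nup107. It was -1.74 for Kpna1, -1.72 for Xpo1, -1.69 for Nup98, -1.50 for Ipo5 and -1.12 for Tnpo3. The median over all genes was -0.53 on the deposited scale and 0.00 before the factor. Before the library factor the same members had -2.03 for Nup43, -2.10 for Nxf1, -1.21 for Kpna2, -1.61 for Kpnb1, -1.32 for Nup107, -2.33 for Kpna1, -1.0 for Xpo1, -1.17 for Nup98, -1.04 for Ipo5 and -1.59 for Tnpo3. Kpna1 and Tnpo3 were at the floor in both genotypes at the 1-cell stage, so their change is that of the 2-cell stage alone. Kpna1, Tnpo3, Nxf1 and Nup107 were at the floor in both KO 2-cell libraries, and Kpnb1 was in 1 of them. Oocyte and 2-cell markers also differed between KO and WT embryos, and their part in these changes was not tested.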

How the results depend on the processing

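The scale decides the comparisons across stages and at the 1-cell stage, and depth, which is unknown, and the floor limit what can be seen of low members. Before the factor, 0 members rose in KO 1-cell embryos, 8 rose and 6 fell in WT 1-cell embryos against oocytes, 11 rose in WT 2-cell embryos, and 0 changed their KO-WT difference from oocyte to 1-cell. Quantile normalization gave 3 higher and 2 lower in KO 1-cell embryos, 8 higher and 13 lower in KO 2-cell embryos, 16 higher and 6 lower in WT 1-cell embryos, 9 higher and 14 lower in WT 2-cell embryos, and KO-WT differences that moved upwards for 1 from oocyte to 1-cell and upwards for 7 and downwards for 12 from 1-cell to 2-cell. In the same order it called 12.8% and 16.4%, 23.9% and 19.2%, 33.4% and 23.8%, 20.0% and 26.3%, 5.81%, and 31.4% and 19.6% of all genes. A minimum mean of 5 FPKM left 8 members tested between KO and WT 2-cell embryos, of which 3 rose and 2 fell in KO. Nxf1, Kpna1 and Kpnb1, which fell without this filter, were too low to be tested there. With the filter, 23 of 23 members tested were called between KO and WT 1-cell embryos, and 25 of 26 were lower in WT 1-cell embryos. In WT 2-cell embryos 0 of 20 were higher, and 13 of 20 changed their difference from 1-cell to 2-cell. No share of all genes is given for this filter. Leaving out 1 library gave 14 to 30 members higher in KO 1-cell embryos, 1 to 3 higher and 7 to 10 lower in KO 2-cell embryos, 0 to 1 lower in KO oocytes, 2 to 3 higher and 15 to 17 lower in WT 2-cell embryos, and 6 to 30 and 13 to 25 changed differences from oocyte to 1-cell and from 1-cell to 2-cell. A pseudocount of 0.1 changed no call of a named member. For the genes in the lists below the cause was not tested.

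With the replicate number as a block, 3 members rose in KO 2-cell embryos, and the calls of Nup153 (adjusted p 0.0652), Nup37 (0.0718) and Xpo1 (0.0801) were lost, with no other call of a named member changed. Deviations of same-numbered libraries correlated at 0.187 in oocytes, 0.251 at the 1-cell and -0.336 at the 2-cell stage, with only 2 pairs a stage, so the numbers were not taken as pairs.

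These lists cover only called members picked by the rules given above for values and statistics. Other called members turned too, such as Ipo5 (-0.30), Kpna3 (-0.07), Nup188 (-0.09) and Nup98 (-0.24) between KO and WT 1-cell embryos before the factor. Among the picked members, log2 fold changes that turned their sign between KO and WT 1-cell embryos before the factor were those of Ipo8 (-0.26), Kpna2 (-0.26), Nup153 (-0.27), Nup50 (-0.14), Nup62 (-0.07), Nup88 (-0.17), Nup93 (-0.04) and Nxf1 (-0.24), and under quantile normalization those of Ipo8 (-0.46), Kpna2 (-0.46), Kpna7 (-0.10), Kpnb1 (-0.09), Nup153 (-0.40), Nup35 (-0.07), Nup43 (-0.01), Nup50 (-0.24), Nup62 (-0.24), Nup88 (-0.36), Nup93 (-0.21) and Nxf1 (-0.32). Between WT 1-cell embryos and WT oocytes they were, before the factor, Ipo8 (1.01), Nup153 (0.81), Nup214 (0.69), Nup35 (0.06), Nup37 (0.71), Nup50 (0.16), Nup62 (0.73), Nup88 (0.61) and Nup93 (0.20), and under quantile normalization Ipo8 (1.51), Nup153 (1.19), Nup214 (1.12), Nup35 (0.63), Nup37 (1.25), Nup50 (0.58), Nup54 (0.33), Nup62 (1.19), Nup88 (1.15), Nup93 (0.68) and Xpo1 (0.25). Between WT 2-cell and WT 1-cell embryos they were Nup43 (0.17) before the factor and Kpna2 (0.10) and Nup43 (0.05) under quantile normalization. All 15 calls between KO and WT 2-cell embryos kept their direction under both.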

Other observations

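These genes were chosen after their values were seen. Relatives within a carrier family differed in opposite directions between KO and WT 2-cell embryos. Ipo8 had 18.7 and 15.7 FPKM in KO and 10.0 and 9.84 FPKM in WT. Ipo7 was at the floor in KO and near it in WT, at 1.5 and 1.95 FPKM. As given above, the calls of Ipo8 and Ipo7 were lost when single libraries were left out. Kpna3 had 25.3 and 27.4 FPKM in KO and 13 and 13.5 FPKM in WT, whereas Kpna1 was at the floor in KO and at 5.90 and 5.43 FPKM in WT. Nxt1, the partner of Nxf1, had 3.99 and 2.61 FPKM in KO 2-cell embryos, against 10.1 and 10.2 FPKM in WT 2-cell embryos (log2 fold change -1.40).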
